A study of Zea mays with 12 samples.

Results

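In developing maize endosperm, 45 of the 39448 gene models measured were at most 0.5 times as abundant without Opaque2 (O2) in each of 2 backgrounds, with and without an RNAi line against the prolamin-box binding factor gene (Pbf). They were chosen from the measured values themselves. The mean FPKM (fragments per kilobase of transcript and per mapped fragments, a measure of abundance per transcript length) of each genotype plus 0.5 was compared between o2 and wild type (WT) and between PbfRNAi;o2 and PbfRNAi. Both ratios had to be at most 0.5 with no overlap of the libraries, and the highest of the 4 genotype values had to lie between 5 and 300. A group of 4 further genes that met these conditions, o2 itself and the alpha-zein genes z1C1_11, z1C1_1 and z1C1_6, was left out by name. The names used below are RefSeq symbols: 36 of the 45 genes matched a RefSeq entry and 10 carry a name there, so most are given by their gene model alone and no role is assigned to them.

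O2 is a basic leucine zipper (bZIP) transcription factor made in the starchy endosperm, where it activates storage protein genes, above all those of the alpha-zeins, and genes of amino acid and carbohydrate metabolism. PBF is a Dof-type zinc finger factor that binds the prolamin box in zein promoters and acts on several of the same genes. Kernels without functional O2 are soft and opaque and have less zein and more lysine, which is why the mutation has long been used in breeding high-lysine maize.

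The samples were endosperm of field-grown plants at 16 days after pollination, in 3 biological replicates of each of 4 genotypes. PbfRNAi;o2 carries both the RNAi construct against Pbf and the opaque2 mutation, o2 carries the opaque2 mutation, PbfRNAi carries the construct alone, and WT carries neither. The labels name neither the opaque2 allele, nor the promoter of the RNAi construct, nor whether the RNAi line is a single transformation event, nor the inbred line of each genotype. Ribosomal RNA was depleted from total RNA before paired reads of 125 nt were made.

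The targeted genes followed their labels. The o2 transcript (GRMZM2G015534) was at 0.804, 0.312 and 0.270 FPKM in PbfRNAi;o2, at 0.677, 0.165 and 0.560 FPKM in o2, at 97.3, 127.5 and 133.3 FPKM in PbfRNAi and at 229.7, 194.9 and 188.9 FPKM in WT. The pbf1 transcript (GRMZM2G146283) averaged 59.5 ± 4.97 FPKM in PbfRNAi;o2, 293.4 ± 45.9 in o2, 46.6 ± 9.09 in PbfRNAi and 103.4 ± 6.41 in WT (SD, n = 3 each), so that o2 was present at a lower level in PbfRNAi than in WT and pbf1 at a higher level in o2 than in WT. On the log2(FPKM + 1) scale, Pearson's r across all genes tested was 0.989 to 0.995 between replicates 2 and 3, and 0.955 to 0.970 between replicate 1 and either of them. The replicate 1 libraries therefore stand apart in all 4 genotypes, and values that move without them are given below. The 6 starchy endosperm markers tested summed to between 33888 and 61783 FPKM in every library, green tissue markers to at most 0.394 FPKM, and embryo surrounding region markers to at most 4.19 FPKM. The 6 basal transfer layer markers summed to 95.3 to 282 FPKM in PbfRNAi;o2, 291 to 544 in o2, 54.4 to 164 in PbfRNAi and 190 to 269 in WT. The 5 aleurone markers tested, with Nkd2 among them, summed to 252 to 322 FPKM in PbfRNAi;o2, 219 to 282 in o2, 179 to 228 in PbfRNAi and 173 to 184 in WT, and the gene c1 of that list was at 0. The embryo markers summed to 327 to 630.2 FPKM over all libraries. The part of these cell types in the values of the 45 genes was not tested. In bulk tissue, fewer cells that express a gene and less RNA of it per cell cannot be told apart.

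The 45 genes were lower without O2 by the way they were chosen, and the values of the choice are given here as a description. Their mean FPKM over the 3 replicates had a median of 4.23 in PbfRNAi;o2 (range 0.0313, for a model listed at 0 in 2 libraries, to 47.9), 2.45 in o2 (0.219 to 57.6), 13.1 in PbfRNAi (2.73 to 241) and 10.6 in WT (1.89 to 262). The ratio of PbfRNAi;o2 to PbfRNAi ranged from 0.031 to 0.499 with a median of 0.311, and the ratio of o2 to WT from 0.0265 to 0.474 with a median of 0.357. A ratio of at most 0.25 was found for 18 genes in the RNAi background, for 16 genes in o2 against WT, and for 12 genes in both. Summed over the 45 genes, the libraries held 186, 428 and 432 FPKM in PbfRNAi;o2, 379, 347 and 349 in o2, 1413, 1562 and 1835 in PbfRNAi, and 1169.7, 1694 and 1755 in WT. Every library without O2 was thus below every library with it, and replicate 1 of PbfRNAi;o2 was the lowest of all 12. The genotype with the highest mean was PbfRNAi for 32 genes and WT for 13, and the lowest was o2 for 33 genes and PbfRNAi;o2 for 12.

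**Figure D1:**
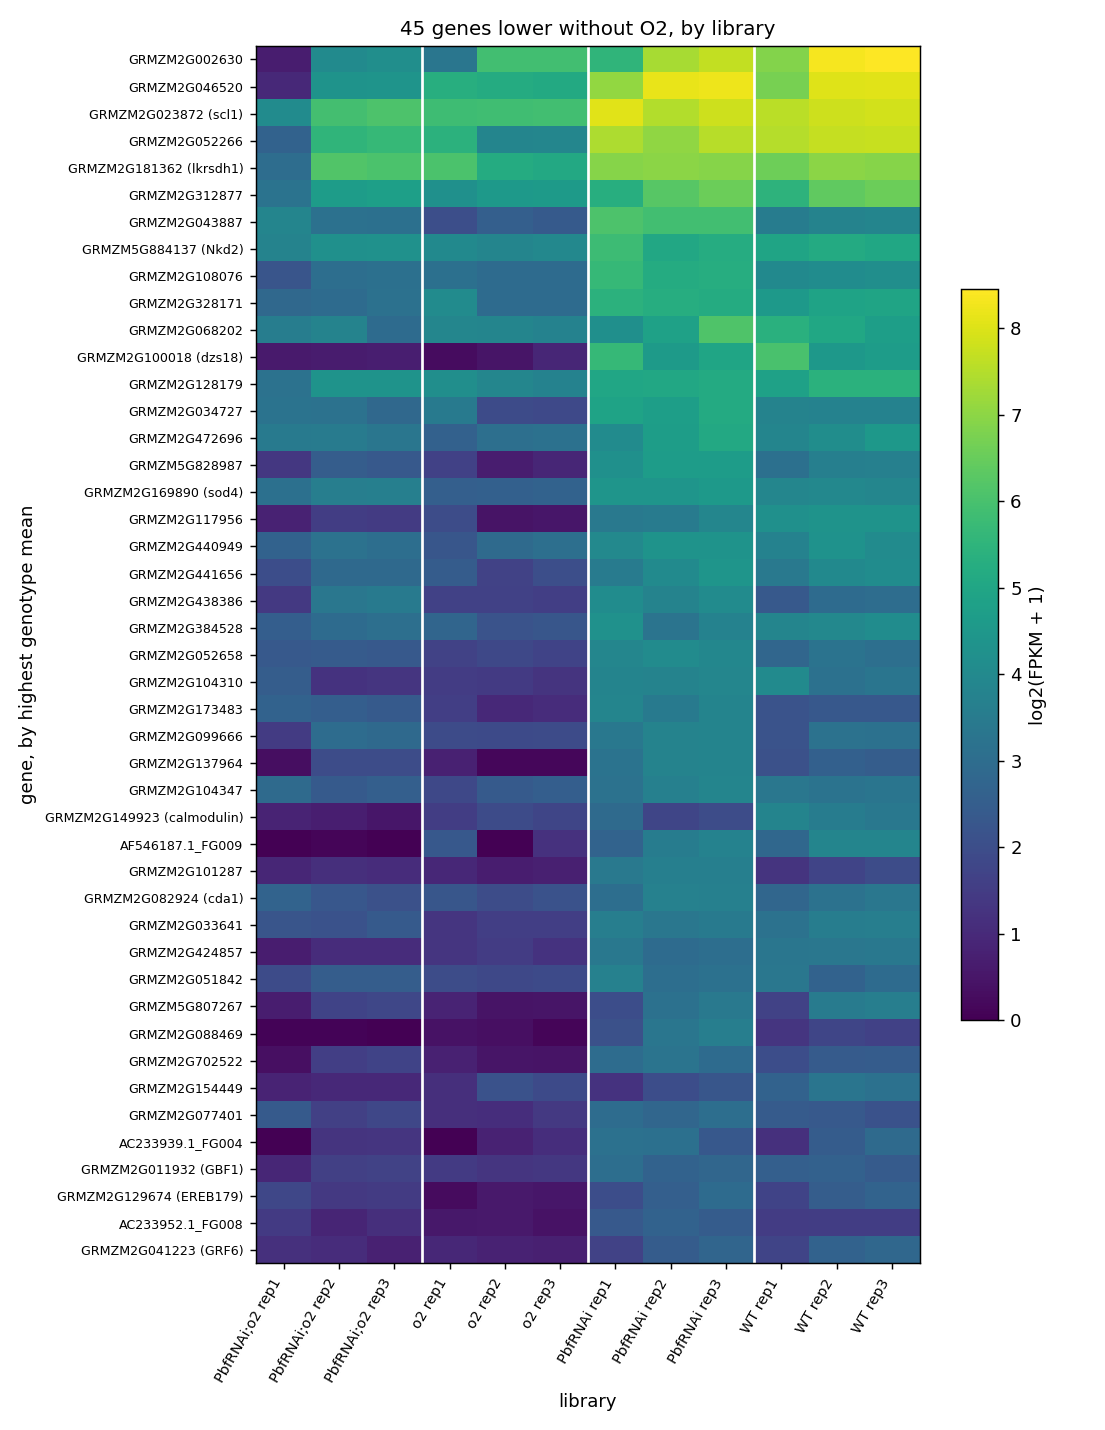
Expression of the 45 genes, down the page by highest genotype mean, in the 12 libraries, across the page by genotype, with colour giving log2(FPKM + 1). In each row PbfRNAi;o2 is darker than PbfRNAi and o2 is darker than WT, and replicate 1 of PbfRNAi;o2 is darkest for GRMZM2G002630, GRMZM2G046520, scl1, GRMZM2G052266 and lkrsdh1.

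The conditions were uncommon among genes of this abundance. Of 11338 gene models with a highest level of 5 to 300, 220 met the condition in the RNAi background, 108 met it for o2 against WT (0.953%), and 49 met both. A further 20 models met both below that level and 18 above it. All 45 genes passed the filter on low values, and in the fit over 17058 genes 45 were called lower in PbfRNAi;o2 than in PbfRNAi by limma's test, where 6% of all genes tested were called lower. For o2 against WT, 42 were called lower, against a background of 2.63%, and the 3 not called were GRMZM2G002630, GRMZM2G099666 and lkrsdh1. Nothing is read from these counts, since the rule used the same contrasts. The cut at 0.5 fell in a continuous range. In the RNAi background the genes just inside had ratios of 0.493 (sod4), 0.498 (GRMZM2G104347) and 0.499 (GRMZM2G384528), and those just outside 0.503 (GRMZM5G817886), 0.505 (GRMZM2G452887) and 0.520 (GRMZM2G343048). For o2 against WT the genes just inside had ratios of 0.465 (GRMZM2G099666), 0.465 (cda1) and 0.474 (GRMZM2G104347), and those just outside 0.510 (GRMZM2G110681), 0.514 (GRMZM2G033236) and 0.514 (GRMZM2G456086).

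**Figure D2:**
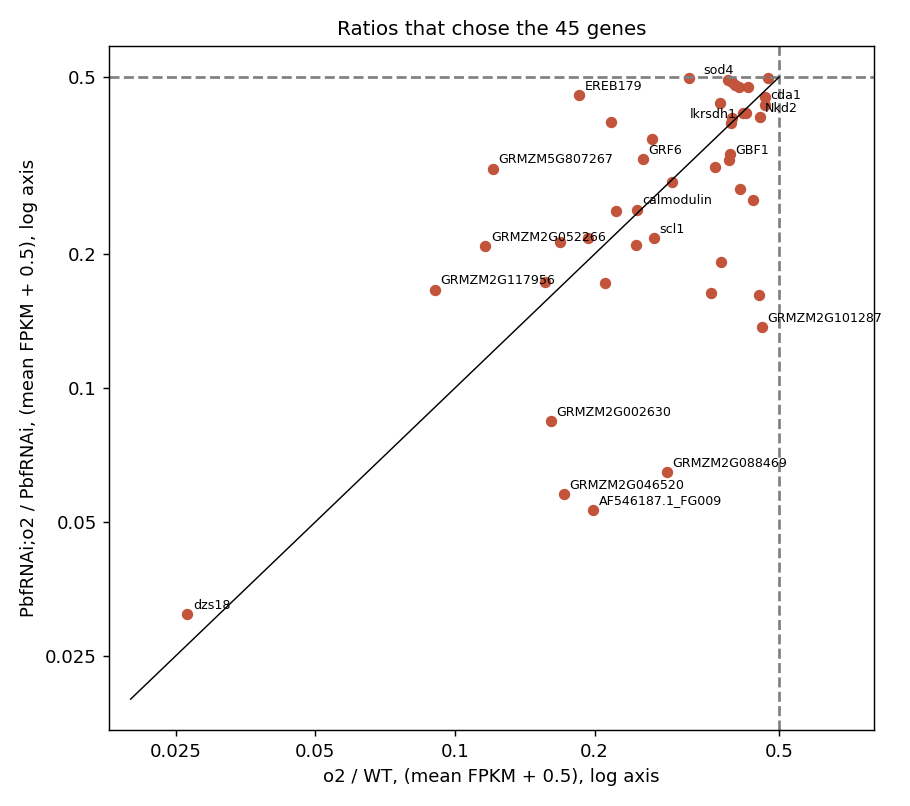
Ratio of PbfRNAi;o2 to PbfRNAi (vertical) against ratio of o2 to WT (horizontal) for the 45 genes, each the ratio of genotype means after adding 0.5 FPKM, on log axes. Dashed lines mark the limit of 0.5 that chose the genes and the solid line marks equal ratios, with dzs18 at the lower left at 0.031 and 0.0265.

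Named transcription factors made up 5 of the 45 genes, of which only 10 carry a name. The share of factors among all named genes was not computed, so the count is a description. The most abundant factor was scl1 (GRMZM2G023872), whose symbol stands for a scarecrow-like gene of the GRAS family. It stood at 15.8, 60.2 and 67.9 FPKM in PbfRNAi;o2, at 56.2, 57.5 and 59.0 in o2, at 270.8, 175.2 and 221.8 in PbfRNAi and at 189, 223 and 234.5 in WT. The values with O2 were all at least 175.2 FPKM and those without it at most 67.9 FPKM, and replicate 1 of PbfRNAi;o2 was the lowest library. Nkd2 (GRMZM5G884137) encodes an INDETERMINATE-domain zinc finger factor, NAKED ENDOSPERM2, which acts with its paralogue Nkd1 in aleurone differentiation and endosperm maturation. Nkd2 stood at 12.8, 18 and 18.4 FPKM in PbfRNAi;o2, at 15.1, 13.4 and 14.5 in o2, at 54.1, 32.6 and 36.6 in PbfRNAi and at 29.6, 35.0 and 31.9 in WT. Its paralogue Nkd1 (GRMZM2G129261), which is not among the 45 genes, ran the other way. Nkd1 averaged 161 FPKM in PbfRNAi;o2 and 63.0 FPKM in PbfRNAi, a log2 difference of 1.32 (limma, adjusted p = 0.00033), and 117 FPKM in o2 and 52.7 FPKM in WT, a log2 difference of 1.14 (limma, adjusted p = 0.00087). Higher levels without O2 were common, with 38.9% and 48.6% of all genes tested called higher in these contrasts.

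The other named factors were of low abundance. GBF1 (GRMZM2G011932), a G-box binding factor of the bZIP class, averaged 1.68 ± 0.691 FPKM in PbfRNAi;o2 and 6.19 ± 1.08 in PbfRNAi, and 1.57 ± 0.123 in o2 and 4.81 ± 0.382 in WT (SD, n = 3 each). EREB179 (GRMZM2G129674), of the ethylene-response element binding family of AP2 factors, stood at 2.45, 1.64 and 1.75 FPKM in PbfRNAi;o2, at 0.192, 0.480 and 0.410 in o2, at 3.01, 4.86 and 6.75 in PbfRNAi and at 2.27, 4.68 and 5.47 in WT. Its ratio was 0.185 in o2 against WT and 0.455 in the RNAi background. These ratios chose the gene, so no difference between them is read. At its levels in o2 the added 0.5 FPKM weighs on the ratio. GRF6 (GRMZM2G041223) averaged 1.02 ± 0.278 FPKM in PbfRNAi;o2 and 4.16 ± 1.84 in PbfRNAi, and 0.785 ± 0.120 in o2 and 4.54 ± 1.96 in WT (SD, n = 3 each). In a wider list of genes with a transcription factor family word in their symbol, 104 were tested. Of these, 11 fell and 43 rose without O2 in the RNAi background, and 10 fell and 40 rose in o2 against WT (limma, adjusted p under 0.05). Over all genes tested, 6% fell and 38.9% rose in the RNAi background, and 2.63% fell and 48.6% rose in o2 against WT.

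The storage protein gene dzs18 (GRMZM2G100018), which encodes a methionine-rich delta-zein, had the lowest ratios of all 45 genes over all libraries. It stood at 0.532, 0.573 and 0.633 FPKM in PbfRNAi;o2, at 0.209, 0.397 and 0.858 in o2, at 49.3, 23.6 and 30.0 in PbfRNAi and at 64.3, 21.7 and 24.3 in WT. Its level without O2 was 3.10% of that in PbfRNAi and 2.65% of that in WT, after adding 0.5 FPKM. Without the replicate 1 libraries its ratio to WT was 0.0480, just above that of GRMZM2G117956 at 0.0461. Replicate 1 was the highest library in both genotypes with O2, unlike most of the 45 genes. Related zein copies can share reads, which leaves the level of each zein model uncertain. Of the 14 zein models that met both ratios without overlap, dzs18 was the only one among the 45. Of 25 zein models tested, 18 fell and 0 rose without O2 in the RNAi background, and 15 fell and 1 passed the test as higher in o2 against WT (limma, adjusted p under 0.05). That model, the gamma-zein gz27 (GRMZM2G138727), was listed at 0, 22675 and 23594 FPKM in o2 and at 0 in all 3 WT libraries. Since a listed 0 can be a failed estimate, no rise is read from it. The shares of all genes tested called lower and higher were 6% and 38.9% in the RNAi background, and 2.63% and 48.6% in o2 against WT.

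The enzyme gene lkrsdh1 (GRMZM2G181362) encodes the bifunctional lysine-ketoglutarate reductase and saccharopine dehydrogenase, which starts the breakdown of lysine, and is a known target of O2. It stood at 7.13, 70.3 and 65.2 FPKM in PbfRNAi;o2, at 65.4, 35.5 and 33.4 in o2, at 119, 124 and 120.8 in PbfRNAi and at 95.4, 127 and 120.4 in WT. Replicate 1 was far below the other replicates in PbfRNAi;o2 and above them in o2, and its ratios were 0.394 in both comparisons. It was the only one of 11 tested genes of the aspartate family, the route to lysine, threonine and methionine, among the 45. In that family 3 genes fell and 0 rose without O2 in the RNAi background, and 1 fell and 2 rose in o2 against WT (limma, adjusted p under 0.05). Of all genes tested, 6% fell and 38.9% rose in the RNAi background, and 2.63% fell and 48.6% rose in o2 against WT.

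Of 15 genes known as O2 targets, 14 met both ratios without overlap. Only lkrsdh1 of them is among the 45, as 10 lie above the level of 300 and 3 were left out by name. The exception was PPDK2 (GRMZM2G097457), a pyruvate orthophosphate dikinase gene, with ratios of 0.832 in the RNAi background and 1.03 in o2 against WT. The other pyruvate orthophosphate dikinase gene, pdk1 (GRMZM2G306345), had ratios of 0.188 and 0.407 in the same order. The list of 15 holds the z1C1 alpha-zein models together with bz15, rip1, pdk1, PPDK2 and lkrsdh1. Related z1C1 copies can share reads, so these are not 15 separate observations. Of the 11338 models with a level of 5 to 300, 49 (0.432%) met both ratios without overlap. A further 18 did above that level, with the 10 targets above 300 among them, and 20 did below it. The number of all models above 300 is not given. The 0.432% is therefore no matched share for the 14 of 15, which is a description.

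Among the remaining named genes, sod4 (GRMZM2G169890) encodes a cytosolic copper/zinc superoxide dismutase, which removes superoxide. It stood at 7.68, 11.2 and 11.5 FPKM in PbfRNAi;o2, at 4.86, 4.99 and 5.34 in o2, at 20.1, 20.4 and 22.6 in PbfRNAi and at 13.6, 14.2 and 13.6 in WT. The 4 genotypes did not overlap, in the order o2, PbfRNAi;o2, WT and PbfRNAi from lowest to highest. Of 25 tested genes for peroxidases, superoxide dismutases, catalases and glutathione S-transferases, sod4 was the only one among the 45. In that list 5 genes fell and 7 rose without O2 in the RNAi background, and 4 fell and 6 rose in o2 against WT (limma, adjusted p under 0.05). Over all genes tested the shares were 6% and 38.9% in the RNAi background, and 2.63% and 48.6% in o2 against WT. A calmodulin gene (GRMZM2G149923), which encodes a calcium sensor, stood at 0.808, 0.639 and 0.412 FPKM in PbfRNAi;o2, at 1.91, 2.82 and 2.38 in o2, at 6.49, 2.41 and 2.94 in PbfRNAi and at 13.1, 10.7 and 9.54 in WT. It was lowest in the genotype that lacks O2 and carries the RNAi construct, and highest in WT. The gene cda1 (GRMZM2G082924) averaged 4.23 ± 1.14 FPKM in PbfRNAi;o2 and 10.4 ± 2.68 in PbfRNAi, and 3.35 ± 0.446 in o2 and 7.77 ± 1.66 in WT (SD, n = 3 each). Related copies of sod4 and of the calmodulin gene exist in maize, and how reads were split between copies is not known.

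Several of the most abundant genes carry no name. GRMZM2G002630 had the highest WT mean of the 45 and stood at 0.614, 15.7 and 17.1 FPKM in PbfRNAi;o2, at 9.08, 58.2 and 58.2 in o2, at 45.3, 162.9 and 203.9 in PbfRNAi and at 118, 319.8 and 349 in WT. Replicate 1 was the lowest library in each genotype, and within each replicate number the order was PbfRNAi;o2, o2, PbfRNAi and WT from lowest to highest. GRMZM2G046520 stood at 0.981, 19.4 and 19.9 FPKM in PbfRNAi;o2, at 38.0, 36.0 and 34.2 in o2, at 133, 286 and 303 in PbfRNAi and at 104, 264 and 269 in WT. Its ratio was 0.0577 in the RNAi background and 0.172 in o2 against WT. GRMZM2G052266 stood at 5.24, 44.7 and 49.7 FPKM in PbfRNAi;o2, at 41.9, 13.4 and 13.7 in o2, at 170.2, 130.5 and 183 in PbfRNAi and at 183, 207 and 215 in WT. For this gene, as for lkrsdh1, replicate 1 was the lowest in PbfRNAi;o2 and the highest in o2. GRMZM2G312877 averaged 19.6 ± 9.77 FPKM in PbfRNAi;o2 and 68.7 ± 27.6 in PbfRNAi, and 21.2 ± 2.81 in o2 and 73.1 ± 26.5 in WT (SD, n = 3 each).

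**Figure D3:**
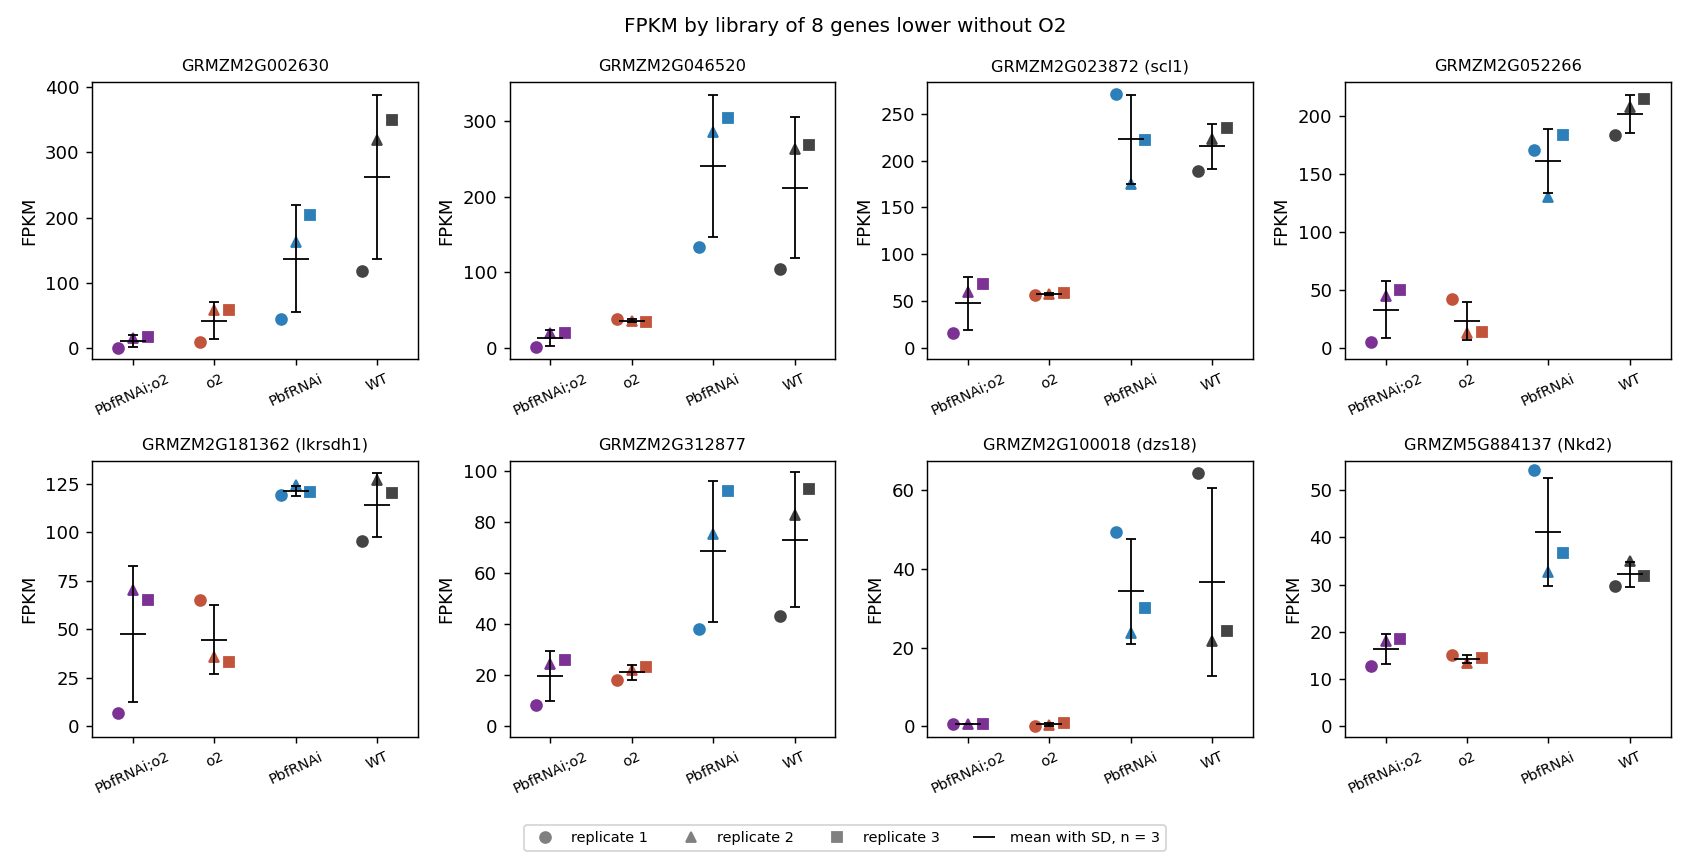
FPKM by library of 8 of the 45 genes, by genotype from PbfRNAi;o2 on the left to WT on the right, with a marker for each replicate and a line for the mean with SD (n = 3). In each of the 8 panels the 6 values without O2 lie below those with O2 of the matching background, and replicate 1 lies apart in many of them, as for lkrsdh1 in PbfRNAi;o2 at 7.13 FPKM.

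Other genes with very low ratios were less abundant. GRMZM2G117956 stood at 0.745, 1.87 and 1.76 FPKM in PbfRNAi;o2, at 2.9, 0.377 and 0.441 in o2, at 9.65, 10.4 and 13.7 in PbfRNAi and at 17.8, 19.1 and 19.4 in WT, with ratios of 0.166 and 0.0904. GRMZM5G828987 stood at 1.59, 4.61 and 4.16 FPKM in PbfRNAi;o2, at 2.12, 0.599 and 0.872 in o2, at 17.8, 24.7 and 24.6 in PbfRNAi and at 7.60, 11.7 and 11.7 in WT, with ratios of 0.173 and 0.157. The libraries with and without O2 of each background were far apart for both genes. AF546187.1_FG009, a model placed on a sequenced clone, was listed at 0, 0.0938 and 0 FPKM in PbfRNAi;o2, at 4.06, 0 and 1.30 in o2, at 5.39, 10.8 and 12.3 in PbfRNAi and at 6.03, 13.5 and 13.4 in WT. A listed 0 can be a failed estimate, so its values are given by library. A model of the same clone at a much higher level, AF546187.1_FG007, had ratios of 0.0294 in the RNAi background and 0.226 in o2 against WT, with values of 20.5, 411 and 334 FPKM in PbfRNAi;o2 and 6514, 10134 and 9396 FPKM in PbfRNAi. Another, AF546187.1_FG012, ran the other way, at 10.2, 10.2 and 7.70 FPKM in PbfRNAi;o2, 0, 0.492 and 1.76 in PbfRNAi, 0.371, 4.19 and 1.88 in o2 and 0.457, 0.413 and 0.865 in WT.

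The ratios that chose the genes compared neither PbfRNAi with WT nor PbfRNAi;o2 with o2, but the same libraries entered them, and the level limit bears on PbfRNAi against WT. Of the 45 genes, 33 had a level of at least 5 in both genotypes with O2. A further 9 reached it through PbfRNAi only, and so had to be higher there than in WT, and 3 reached it through WT only. The count over all 45 genes is therefore given as a description: 12 were called higher in PbfRNAi than in WT, 6 of them among the 9, and 2 were called lower, both among the 3 (limma, adjusted p under 0.05), where 18.2% and 5.16% of all genes tested were called. Among the 33 genes, 6 rose in PbfRNAi against WT and 0 fell, against 18.4% and 3.76% of the 8175 tested genes with both levels in the same range. Among the same 33, 5 rose and 0 fell in PbfRNAi;o2 against o2, against 12.9% and 6.36%. Over all 45 genes, 9 rose and 1 fell in PbfRNAi;o2 against o2, where 14.4% and 7.84% of all genes tested did. The contrasts share no library with each other, but the same fit over all 12 libraries gave both their estimate of spread. Calls in both are therefore not independent. The median log2 difference of the 45 genes was 0.30 with O2 and 0.25 without it, where that of all genes tested was 0.16 and 0.05, and over the 33 genes it was 0.22 and 0.25, where that of the 8175 genes was 0.17 and 0.06. Libraries did not overlap for 17 higher and 3 lower genes in PbfRNAi against WT (30.5% and 9.26% of all genes tested), and for 9 higher and 5 lower genes in PbfRNAi;o2 against o2 (25.9% and 13.9%).

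These counts depend on scaling and on replicate 1. Scaling the libraries by the median of ratios lowered the log2 differences of PbfRNAi against WT by a median of 0.18 over all genes tested. After it the median of the 45 genes was 0.10, 7 of them were called higher (11.3% of all genes tested), and 3 of the 33 were (9.19%). The 5 whose call was lost there were GRMZM2G034727, GRMZM2G077401, GRMZM2G137964, GRMZM5G828987 and sod4, with adjusted p-values from limma of 0.069, 0.057, 0.084, 0.099 and 0.106. Without the 4 replicate 1 libraries, 20 of the 45 were called higher and 8 lower in PbfRNAi than in WT, where 39.3% and 10.1% of all genes tested were. Of the 33, 13 rose and 6 fell there, against 43.7% and 8.87% of genes with both levels in range. Likewise 25 rose and 5 fell in PbfRNAi;o2 against o2, where 23.2% and 26.3% did. Of the 33, 18 rose and 3 fell in it, against 24% and 27.6%. With the replicate number as a block, 4 fell in PbfRNAi;o2 against o2, namely GRMZM2G002630, GRMZM2G046520, GRMZM2G154449 and the calmodulin gene, against 11.1% of all genes tested. That count was also 3 without PbfRNAi replicate 1, and 2 without o2 replicate 1 or o2 replicate 2.

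Calls in the same direction with and without O2 were made for 8 of the 45 genes. The 7 called higher in both were GRMZM2G043887, GRMZM2G052658, GRMZM2G077401, GRMZM2G173483, GRMZM5G828987, AC233952.1_FG008 and sod4, where 6.51% of all genes tested were. GRMZM2G077401, GRMZM2G173483 and AC233952.1_FG008 are among the 9 that passed the level limit through PbfRNAi only. GRMZM2G173483 stood at 5.34, 4.74 and 4.27 FPKM in PbfRNAi;o2 and 1.98, 0.953 and 1.12 in o2, and at 13.3, 10.3 and 13.1 in PbfRNAi and 3.46, 4.07 and 4.07 in WT. All 3 PbfRNAi;o2 values were above those in WT, so that without O2 the gene was low relative to the matching background and not relative to WT in the RNAi line. The log2 difference was 1.32 ± 0.17 in PbfRNAi;o2 against o2 (SE, limma, adjusted p = 0.00011), and 1.44 ± 0.17 in PbfRNAi against WT (SE), which the level limit touches. GRMZM2G052658 had a log2 difference of 0.65 ± 0.13 in PbfRNAi;o2 against o2 (SE, limma, adjusted p = 0.0030) and 0.92 ± 0.13 in PbfRNAi against WT (SE, limma, adjusted p = 0.00026). For sod4, whose values are given above, the log2 difference was 0.86 ± 0.13 in PbfRNAi;o2 against o2 (SE, limma, adjusted p = 0.00064) and 0.57 ± 0.13 in PbfRNAi against WT (SE, limma, adjusted p = 0.0090). The calmodulin gene was the only one of the 45 called lower in both, as 2.32% of all genes tested were, and it passed the level limit through WT only. Its log2 difference was -1.05 ± 0.25 in PbfRNAi;o2 against o2 (SE, limma, adjusted p = 0.0094) and -1.37 ± 0.25 in PbfRNAi against WT (SE). Across the 45 genes the differences of both contrasts correlated at r = 0.567, and across all genes tested at r = 0.464. Genes are not independent replicates, and the sign was the same in 32 of the 45 and in 63.8% of all genes tested. The level limit set the direction of PbfRNAi against WT for the 9 genes that passed through PbfRNAi only and the 3 through WT only. The r and the sign count are therefore descriptions, and neither was computed for the 33 genes past the limit in both.

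Other genes were called in only 1 of these contrasts. In PbfRNAi against WT, GRMZM2G034727 and GRMZM2G108076 rose. GRMZM2G088469, GRMZM2G101287 and GRMZM2G137964 were called higher and GRMZM2G154449 lower, and these 4 passed the level limit through the higher genotype only. GRMZM2G154449 stood at 1.34, 3.04 and 3.80 FPKM in PbfRNAi and at 5.33, 8.83 and 7.99 FPKM in WT, a log2 difference of -1.21 ± 0.29 (SE). In PbfRNAi;o2 against o2, GRMZM2G033641 and EREB179 rose. For EREB179 the log2 difference was 1.11 ± 0.27 in PbfRNAi;o2 against o2 (SE, limma, adjusted p = 0.011) and 0.20 ± 0.27 in PbfRNAi against WT (SE). EREB179 passed the level limit through PbfRNAi only, which touches the latter value. The difference between these values is the interaction, for which EREB179 was not called. It is drawn from the contrasts that chose the genes, so nothing is read from it. Some of the calls rest on few libraries. In PbfRNAi against WT, the call of GRMZM2G034727 was lost without WT replicate 1, 2 or 3 or PbfRNAi replicate 1 or 3 (adjusted p of 0.054 to 0.084), and that of GRMZM2G077401 without WT replicate 2 or 3 or PbfRNAi replicate 1 or 3 (0.068 to 0.111). The call of GRMZM2G137964 was lost without any WT or PbfRNAi library or o2 replicate 2 or 3 (0.053 to 0.136), and that of GRMZM5G828987 without any WT library or PbfRNAi replicate 2 or 3 (0.058 to 0.096). In PbfRNAi;o2 against o2, the call of GRMZM5G828987 was lost without replicate 2 or 3 of any genotype (0.052 to 0.150), and that of GRMZM2G077401 without o2 replicate 2 (0.065). Other settings took calls away too (adjusted p from limma). That of GRMZM5G828987 in PbfRNAi;o2 against o2 was lost after median-of-ratios scaling (0.077) and with no filter on low values (0.057). Its call in PbfRNAi against WT was lost with a pseudocount of 0.1 (0.096) or 0.5 (0.054). There the call of GRMZM2G137964 was lost with a pseudocount of 0.1 (0.252) or 0.5 (0.108) and with no filter (0.067).

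**Figure D4:**
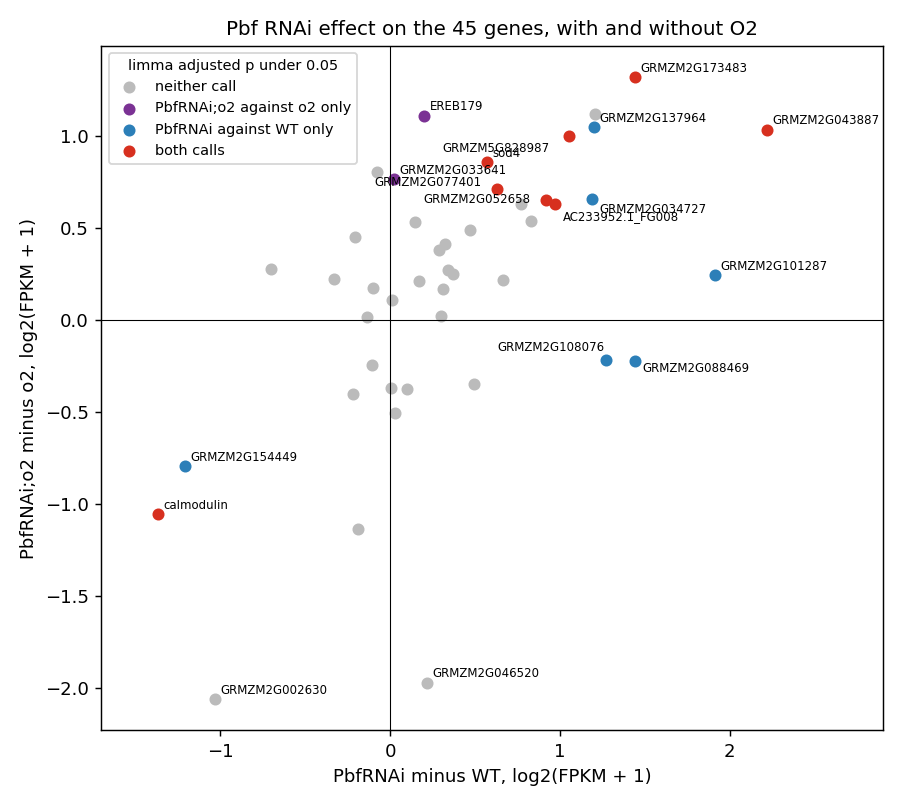
Log2 difference of PbfRNAi;o2 against o2 (vertical) and of PbfRNAi against WT (horizontal) for the 45 genes, on the log2(FPKM + 1) scale, with colour giving which limma call was made. The 7 genes called higher in both lie at the upper right, the calmodulin gene at -1.05 and -1.37 lies at the lower left, and GRMZM2G101287, GRMZM2G108076 and GRMZM2G088469 lie at the right near 0 on the vertical axis.

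The size of the drop without O2 was compared between the backgrounds as an interaction, the log2 difference of PbfRNAi;o2 against PbfRNAi minus that of o2 against WT. It is drawn from the contrasts that chose the genes, so it is given as a description of them and nothing is read from the number of calls. In the fit over all genes it was called negative, with the larger drop in the RNAi background, in 4 of the 45 genes (5.49% of all genes tested), and positive in 1 (3.83%). Its median over the 45 genes had no stable sign. It was -0.12 over all libraries, where that of all genes tested was also -0.12, but 0.02 after median-of-ratios scaling, 0.12 without the replicate 1 libraries, 0.12 without PbfRNAi;o2 replicate 1, 0.01 without WT replicate 1 and 0.0011 with a pseudocount of 0.1.

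The 4 genes with a negative interaction had their highest level in PbfRNAi, and GRMZM2G101287 and GRMZM2G088469 passed the level limit only there. Since the interaction is drawn from the contrasts that chose the genes, its values are given here without a p. GRMZM2G101287 stood at 0.875, 1.22 and 1.10 FPKM in PbfRNAi;o2, at 0.940, 0.613 and 0.683 in o2, at 9.70, 11.5 and 11.6 in PbfRNAi and at 1.41, 2.36 and 2.88 in WT, with an interaction of -1.67 ± 0.24 (SE). GRMZM2G108076 stood at 3.70, 7.23 and 7.63 FPKM in PbfRNAi;o2, at 7.78, 6.75 and 6.68 in o2, at 49.1, 35.6 and 37.9 in PbfRNAi and at 15.3, 16.1 and 17.2 in WT, with an interaction of -1.49 ± 0.29 (SE). Both genes overlapped between PbfRNAi;o2 and o2 and were well above WT in PbfRNAi. Both calls held under all 18 alternatives, which draw on the same contrasts and so are no independent support. GRMZM2G043887 stood at 13.3, 7.86 and 7.69 FPKM in PbfRNAi;o2, at 3.13, 4.93 and 4.25 in o2, at 67.4, 58.3 and 58.1 in PbfRNAi and at 10.8, 12.9 and 13.4 in WT. Its interaction was -1.19 ± 0.27 (SE), and its call was lost without o2 replicate 2. GRMZM2G088469 stood at 0.064, 0.0589 and 0 FPKM in PbfRNAi;o2, at 0.322, 0.262 and 0.0746 in o2, at 3.31, 8.92 and 11.4 in PbfRNAi and at 1.48, 2.44 and 2.10 in WT. Its interaction was -1.66 ± 0.43 (SE), and its call was lost after median-of-ratios scaling and without WT replicate 1 or 3, any o2 library, PbfRNAi replicate 2 or 3, or PbfRNAi;o2 replicate 2 or 3.

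The gene with a positive interaction, GRMZM2G033641, was alike in both genotypes with O2. It stood at 3.66, 3.39 and 4.21 FPKM in PbfRNAi;o2, at 1.49, 1.95 and 1.96 in o2, at 11.3, 9.20 and 10.2 in PbfRNAi and at 8.15, 10.8 and 11.4 in WT, with an interaction of 0.74 ± 0.20 (SE). PbfRNAi;o2 libraries were all above o2 libraries. The call was lost without replicate 2 or 3 of any genotype or o2 replicate 1, and with no filter on low values. Without the 4 replicate 1 libraries, 9 genes had a negative and 16 a positive interaction, where 33.9% and 10.2% of all genes tested did. All 5 calls above were also made there. The count of negative interactions was 2 without o2 replicate 2, and that of positive ones 2 without WT replicate 1.

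**Figure D5:**
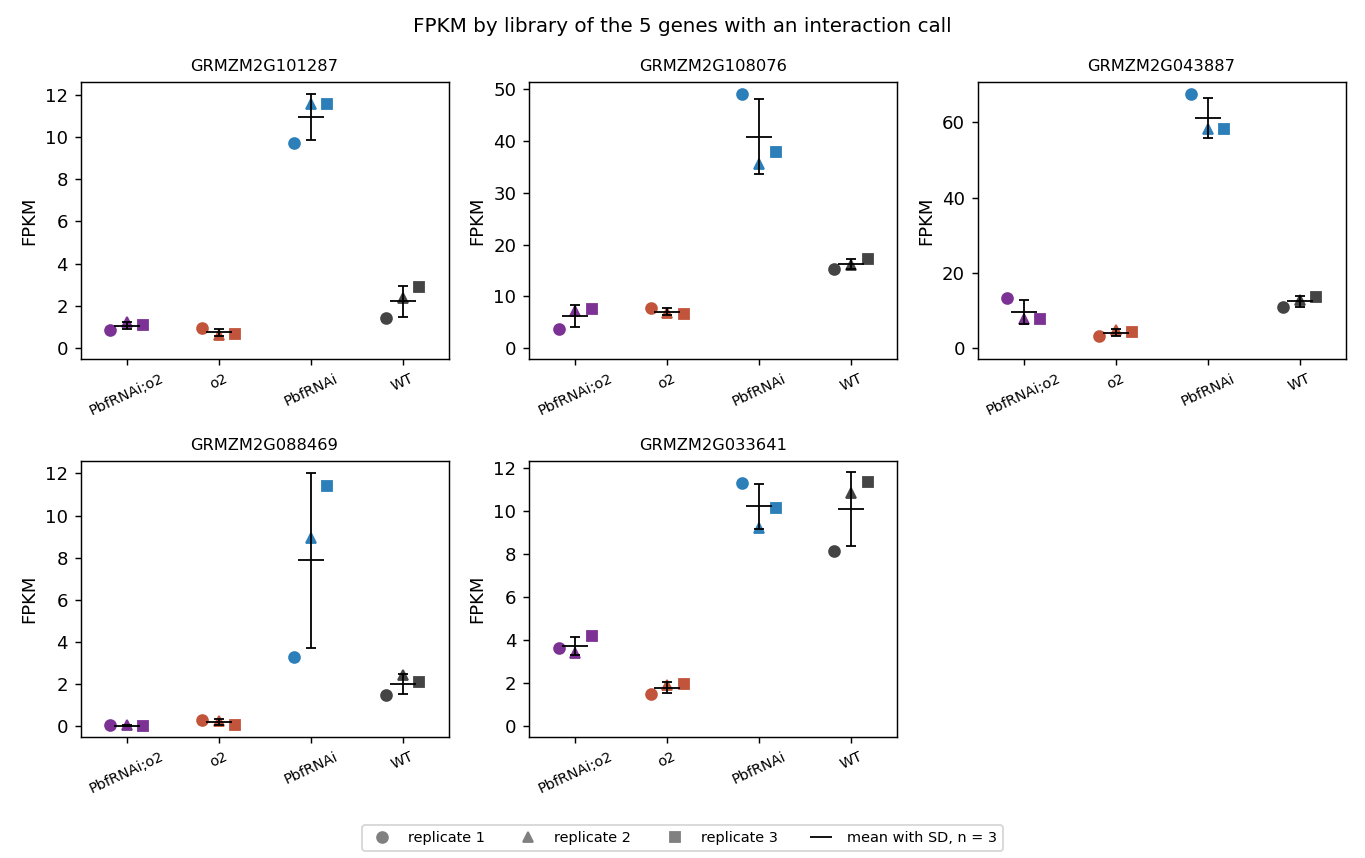
FPKM by library of the 5 genes with an interaction call, by genotype from PbfRNAi;o2 on the left to WT on the right, with a marker for each replicate and a line for the mean with SD (n = 3). GRMZM2G101287, GRMZM2G108076, GRMZM2G043887 and GRMZM2G088469 are highest in PbfRNAi, while GRMZM2G033641 is at similar levels in PbfRNAi and WT and higher in PbfRNAi;o2 than in o2.

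Of the 45 genes, 35 could be placed in the gene order of the RefSeq annotation of Zm-B73-REFERENCE-NAM-5.0. The expression values were made on another build, so only the order of genes is used. GRMZM2G328171 lay 3 coding genes from o2, GRMZM2G108076 lay 57, GRMZM2G088469 lay 97 and cda1 lay 208 from it. Within 100 coding genes on each side of o2, 3 of 75 tested genes (4%) were among the 45, against 32 of 11872 (0.270%) elsewhere. In the same window 8 genes (10.7%) were called lower in both contrasts between genotypes without and with O2, against 1% elsewhere, and 24 (32%) were called higher in both, against 29.6%. With 50 coding genes on each side the window held 1 of the 45 genes among 40 tested, and with 250 it held 4 among 169. This pattern was looked at after the values were known and carries no test. The opaque2 mutation and the stretch of chromosome that came with it cannot be told apart in this design. GRMZM2G328171, the nearest, averaged 6.96 ± 0.868 FPKM in PbfRNAi;o2 and 38.3 ± 3.17 in PbfRNAi, and 9.83 ± 5.33 in o2 and 27.0 ± 3.78 in WT (SD, n = 3 each). Of the 5 genes with an interaction, GRMZM2G108076 and GRMZM2G088469 lie in this window. Apart from this stretch the genes were scattered, and no other neighbouring pair of the 45 had fewer than 98 coding genes between them.

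How replicate 1 stood to replicates 2 and 3 varied with genotype. Replicate 1 was the lowest library for 28 genes in PbfRNAi;o2, 15 in o2, 25 in PbfRNAi and 36 in WT. The median log2 difference of replicate 1 from the mean of replicates 2 and 3 was -0.47 in PbfRNAi;o2, 0.11 in o2, -0.12 in PbfRNAi and -0.39 in WT over the 45 genes, and 0.12, -0.13, 0.02 and 0.08 over all genes tested in the same order. Within replicates the median ratio of PbfRNAi;o2 to PbfRNAi was 0.231, 0.345 and 0.305 in replicates 1, 2 and 3, and that of o2 to WT was 0.380, 0.272 and 0.254. The rule allowed no overlap of libraries, so lower levels without O2 in each replicate number were fixed by the choice. The median ratio of replicate 1 was the lowest in the RNAi background and the highest for o2 against WT. Without the replicate 1 libraries the median ratio was 0.311 in the RNAi background and 0.262 for o2 against WT. In the RNAi background 8 genes then exceeded the limit of 0.5, namely lkrsdh1 (0.555), Nkd2 (0.533), sod4 (0.538), GRMZM2G128179, GRMZM2G438386, GRMZM2G384528, GRMZM2G099666 and GRMZM2G051842, with at most 0.690, and in o2 against WT 1 did, GRMZM2G104347 (0.561). Among all ratios of the 45 genes 9 moved by over 1.5 times. The o2/WT ratio became 0.0480 for dzs18 and 0.0666 for GRMZM2G052266. It became 0.244 for GRMZM2G328171, 0.253 for GRMZM2G034727, 0.101 for GRMZM5G828987, 0.0461 for GRMZM2G117956, 0.0821 for AF546187.1_FG009 and 0.0777 for GRMZM5G807267, and the ratio in the RNAi background became 0.141 for GRMZM2G104310.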

How the data were processed

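The authors deposited FPKM values for 39448 gene models in 12 libraries. FastQC, TopHat, Bowtie2 and Cufflinks with the build B73 RefGen_v3 were used, per the submitters' processing notes, and no source used here gives their versions or settings. FPKM carries no read depth, so the depth is unknown and no counting interval is given. It is relative to the library total. FPKM sums were 430405 to 519817, and 14904 to 16413 genes reached FPKM 1. The 17058 genes that reached FPKM 1 in 3 or more libraries were tested on log2(FPKM + 1), which understates changes of low genes, with limma 3.58.1 in R 4.3.3. The fit had 4 genotype means over all 12 libraries, empirical Bayes with trend and robust settings, two-sided tests and Benjamini-Hochberg adjustment over all genes tested at 0.05. It was tested on simulated data. Same-numbered libraries deviated together (r = 0.180 to 0.501 over 18 pairs). Libraries of different numbers were not compared, so this does not show that the numbers pair them. A block on the number took away none of the calls reported here in contrasts outside the rule. The labels do not say what a number stands for. Named genes were the most abundant, those with the lowest ratios, those called, those next to the limits and those with a symbol or on a list. The members and lists were chosen with earlier results of these data known. Names and gene order come from RefSeq, where 18906 gene models matched. Counts over genes past the level limit in both WT and PbfRNAi were added after the values were seen. Alternatives were another pseudocount, no filter, median-of-ratios scaling, a replicate block, a stricter ratio, and libraries left out singly or as the 4 replicate 1 libraries.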

Additional observations from a re-analysis of the deposited data

Results flagged for a closer look

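In the fit over all genes, the drop without O2 was called different between the RNAi and the non-RNAi background in 5 of the 45 genes (limma, adjusted p under 0.05). Of these, 4 differences were negative and 1 was positive, where 5.49% and 3.83% of all genes tested were called so. The log2 difference between the backgrounds was -1.67 for GRMZM2G101287, -1.66 for GRMZM2G088469, -1.49 for GRMZM2G108076 and -1.19 for GRMZM2G043887, with the larger drop in the RNAi background, and 0.74 for GRMZM2G033641, with the smaller drop there. The value is the difference of the contrasts that chose the genes, and GRMZM2G101287 and GRMZM2G088469 passed the level limit only through PbfRNAi, where they are high, so these are descriptions and not independent tests. Of the 5, the calls of GRMZM2G101287 and GRMZM2G108076 held under every alternative run.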

How the results depend on the processing

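No call of a single gene changed direction under any alternative run, but the median interaction of the 45 genes did, and ranged from -0.22 to 0.12. For calls of single genes 458 values kept their call and 64 lost it; for counts 101 stayed within 1.5 times and 31 did not. By the rule, 104 genes were chosen after median-of-ratios scaling (44 of the 45 among them), 26 with a ratio of at most 0.4, and, as an alternative chosen after seeing the data, 51 without the 4 replicate 1 libraries (35 of the 45 among them). Genes that rose in PbfRNAi against WT numbered 7 after scaling (11.3% of all genes tested). Without the replicate 1 libraries 20 rose and 8 fell, where 39.3% and 10.1% of all genes tested did. In PbfRNAi;o2 against o2, 25 rose and 5 fell without the replicate 1 libraries, where 23.2% and 26.3% of all genes tested did. In the same contrast 3 fell with a pseudocount of 0.1 and 4 with the replicate block (11.1% of all genes tested for the block). A restriction chosen after seeing the data kept only the 33 genes past the level limit in both WT and PbfRNAi. Of these, 6 rose and 0 fell in PbfRNAi against WT, where 18.4% and 3.76% of the 8175 tested genes in that range did. In PbfRNAi;o2 against o2, 5 of the 33 rose and 0 fell (12.9% and 6.36%), and 2 of the 33 had a negative interaction. Negative interactions numbered 3 after scaling. Positive interactions numbered 2 with a pseudocount of 0.1 and 0 with no filter on low values. Without the replicate 1 libraries 16 were positive and 9 negative, where 10.2% and 33.9% of all genes tested were. The cause was not tested. For the other counts here, also those with single libraries left out, the share over all genes tested is not given. With each library left out in turn, the counts ranged from 8 to 15 (rose) and 2 to 3 (fell) in PbfRNAi against WT, from 7 to 13 and 1 to 3 in PbfRNAi;o2 against o2, from 0 to 2 positive and 2 to 4 negative interactions, and from 41 to 53 genes chosen by the rule. With 3 libraries a genotype and no read counts, low genes are the least certain, and a missed call does not show that levels were alike.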

Other observations

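The mirror image of the choice was far larger on the values as deposited. With the same level limits and no overlap of libraries, 418 gene models were at least 2-fold higher without O2 in both backgrounds, against the 49 that were lower. After median-of-ratios scaling the rule for lower genes chose 104, and the mirror image was not counted there, so the comparison holds for unscaled values only. Scaling by the median of ratios lowered the log2 differences by a median over all genes tested of 0.31 in PbfRNAi;o2 against PbfRNAi and of 0.44 in o2 against WT.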
